A study of Homo sapiens with 8 samples.

Results

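The genes described here are 50 genes of mitosis, chosen by name: regulators of mitotic entry, mitotic kinases, kinetochore and spindle checkpoint proteins, condensin subunits and other chromosome proteins, mitotic kinesins, and factors of spindle assembly and cytokinesis. The 50 genes were chosen with earlier results of these data known. They are 50 of the 64253 genes in the count tables. All 50 passed the filter on low counts that left 20305 genes for testing. RNA-seq was measured in 8 libraries of a human colon cancer cell line, 2 replicates in each of 4 groups. HCT-8 is the 5-FU-sensitive line and HCT-8/FU its 5-FU-resistant counterpart, both in unconditioned medium. The groups labelled CM of HCT-8 and CM of HCT-8/FU hold the sensitive cells grown in conditioned medium (CM), taken after 48 h from the sensitive or the resistant line. These media are called parental CM and resistant CM here. No group is described as treated with 5-FU when RNA was taken, and HCT-8/FU is 1 line, bought together with HCT-8, so line and resistance cannot be told apart. No source used here says that the replicates were separate cultures, so the p-values measure the spread between these libraries only.

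Cells entering mitosis activate CDK1 with cyclins A and B, condense their chromosomes with condensin and topoisomerase II, and build a bipolar spindle with kinesin motors. Kinetochores attach the chromosomes to the spindle, and the spindle checkpoint holds anaphase until every chromosome is attached. Most of these genes are transcribed only late in the cell cycle, under FOXM1, B-MYB and the DREAM and MuvB complexes, so their transcripts are commonly used as a readout of proliferation. In bulk RNA, more cells in mitosis and more transcript per cell cannot be told apart. 5-FU is an antimetabolite that blocks thymidylate synthesis and so acts on cells that replicate DNA.

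Counts on genes ranged from 5804124 to 34881349 per library. In 3 libraries, 19.96% to 29.6% of records were not aligned, against 3.58% to 4.43% in the other 5. These were HCT-8 replicate 1, HCT-8/FU replicate 2 and parental CM replicate 1. All 7 colon epithelial markers were detected, with KRT8 between 4720 and 5869 CPM, the counts scaled to library size. Of the markers of other cells, PTPRC, CD3E and COL1A2 had 0 counts in every library. The summed level of 5 immune and endothelial markers was 1.96 to 3.13 CPM, and that of 5 fibroblast markers 12.5 to 22.2 CPM, most of it COL1A1 and PDGFRB.

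Many mitotic promoters carry the cell cycle genes homology region (CHR, TTTGAA), to which the MuvB core binds, and CCAAT boxes, to which NF-Y binds. RefSeq promoters (GRCh38.p14, 250 bases before to 50 after the start) were matched for 43 of the 50 genes, all but FOXM1, AURKA, BIRC5, BUB3, TTK, UBE2C and TPX2. On either strand, TTTGAA was found in 32 of these 43 (74.4%), against 15.2% of 35116 RefSeq promoters of that length. CCAAT was found in 31 (72.1%), against 34.6% of all. Both were found in 24 (55.8%), against 5.90% of all. A match of letters is a description and not a binding site. The stretches upstream of the start of 7 genes are given here as examples, and do not represent all called genes. ASPM, MKI67 and DLGAP5 were higher in both comparisons with resistant cells or their medium, and KIF4A in HCT-8/FU but not in the CM comparison. CCNB2 and CDC20 stayed under the fold threshold in both, and KIF2C passed no test in either. The 7 stretches lie at chr1:197146695-197146819 (minus strand), chr10:128126424-128126573 (minus strand), chr14:55191609-55191735 (minus strand), chrX:70289954-70290103 (plus strand), chr15:59104996-59105125 (plus strand), chr1:43358831-43358980 (plus strand) and chr1:44739687-44739817 (plus strand), each ending before the first annotated exon. Capitals mark TTTGAA and CCAAT on either strand, read there as TTCAAA and ATTGG on the opposite one. KIF2C has neither in the stretch shown, and each other gene shown has both. Stretches cut the same way but not shown include genes called higher in both comparisons. Of these, NCAPG and ECT2 held TTTGAA, CDK1, CENPF, TOP2A, KIF14 and KIF20B held CCAAT only, and SMC2 and ANLN held neither. In the full promoters CDC25C, CENPE, CKAP2 and KIF2C held neither, of which CENPE and CKAP2 were called higher in both comparisons.
ASPM: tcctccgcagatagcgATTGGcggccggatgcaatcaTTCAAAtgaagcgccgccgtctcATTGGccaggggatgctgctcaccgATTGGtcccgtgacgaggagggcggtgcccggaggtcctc
MKI67: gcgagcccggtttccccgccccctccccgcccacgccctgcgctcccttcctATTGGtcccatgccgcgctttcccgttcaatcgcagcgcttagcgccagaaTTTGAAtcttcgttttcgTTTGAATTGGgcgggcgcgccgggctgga
DLGAP5: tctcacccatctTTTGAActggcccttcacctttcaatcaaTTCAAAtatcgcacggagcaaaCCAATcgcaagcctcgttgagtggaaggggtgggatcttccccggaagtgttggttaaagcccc
KIF4A: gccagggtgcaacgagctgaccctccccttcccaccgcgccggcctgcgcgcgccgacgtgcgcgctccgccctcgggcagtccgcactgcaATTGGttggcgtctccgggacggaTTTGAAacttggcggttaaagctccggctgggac
CCNB2: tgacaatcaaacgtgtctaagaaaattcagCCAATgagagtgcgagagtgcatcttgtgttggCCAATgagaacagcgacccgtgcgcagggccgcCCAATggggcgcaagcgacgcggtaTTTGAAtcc
CDC20: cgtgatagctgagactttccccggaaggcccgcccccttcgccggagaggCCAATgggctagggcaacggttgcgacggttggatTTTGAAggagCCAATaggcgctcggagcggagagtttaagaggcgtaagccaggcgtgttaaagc
KIF2C: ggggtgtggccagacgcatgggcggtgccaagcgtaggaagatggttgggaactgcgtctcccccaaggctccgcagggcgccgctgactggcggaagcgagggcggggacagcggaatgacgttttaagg

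Levels of the mitotic genes were higher in HCT-8/FU than in HCT-8. Summed over the 50 genes, they came to 1731 and 1704 CPM in the replicates of HCT-8, 3803 and 3986 for HCT-8/FU, 2299 and 1994 with parental CM, and 2895 and 2879 with resistant CM. The HCT-8/FU libraries lay above all others, and those with resistant CM above the HCT-8 and parental CM libraries. A gene was called differentially expressed (DE) at an adjusted p of at most 0.05 by the quasi-likelihood test of edgeR, with the p-values of all 20305 genes adjusted after Benjamini and Hochberg, and an absolute log2 fold change (log2 FC) of at least 0.58. In HCT-8/FU against HCT-8, 36 of 50 were called higher and 0 lower, against 13.2% of all genes higher and 8.12% lower. Another 10 passed the adjusted p but not the fold threshold, all higher, and 4 passed neither. The median log2 FC was 1.37, against 0.01 for all genes. The study's RT-qPCR primers include TOP2A, MKI67 and CENPF, but its text gives no RT-qPCR values for them. Genes were selected for RT-qPCR after the sequencing, so a like direction there would not be independent evidence.

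**Figure D1:**
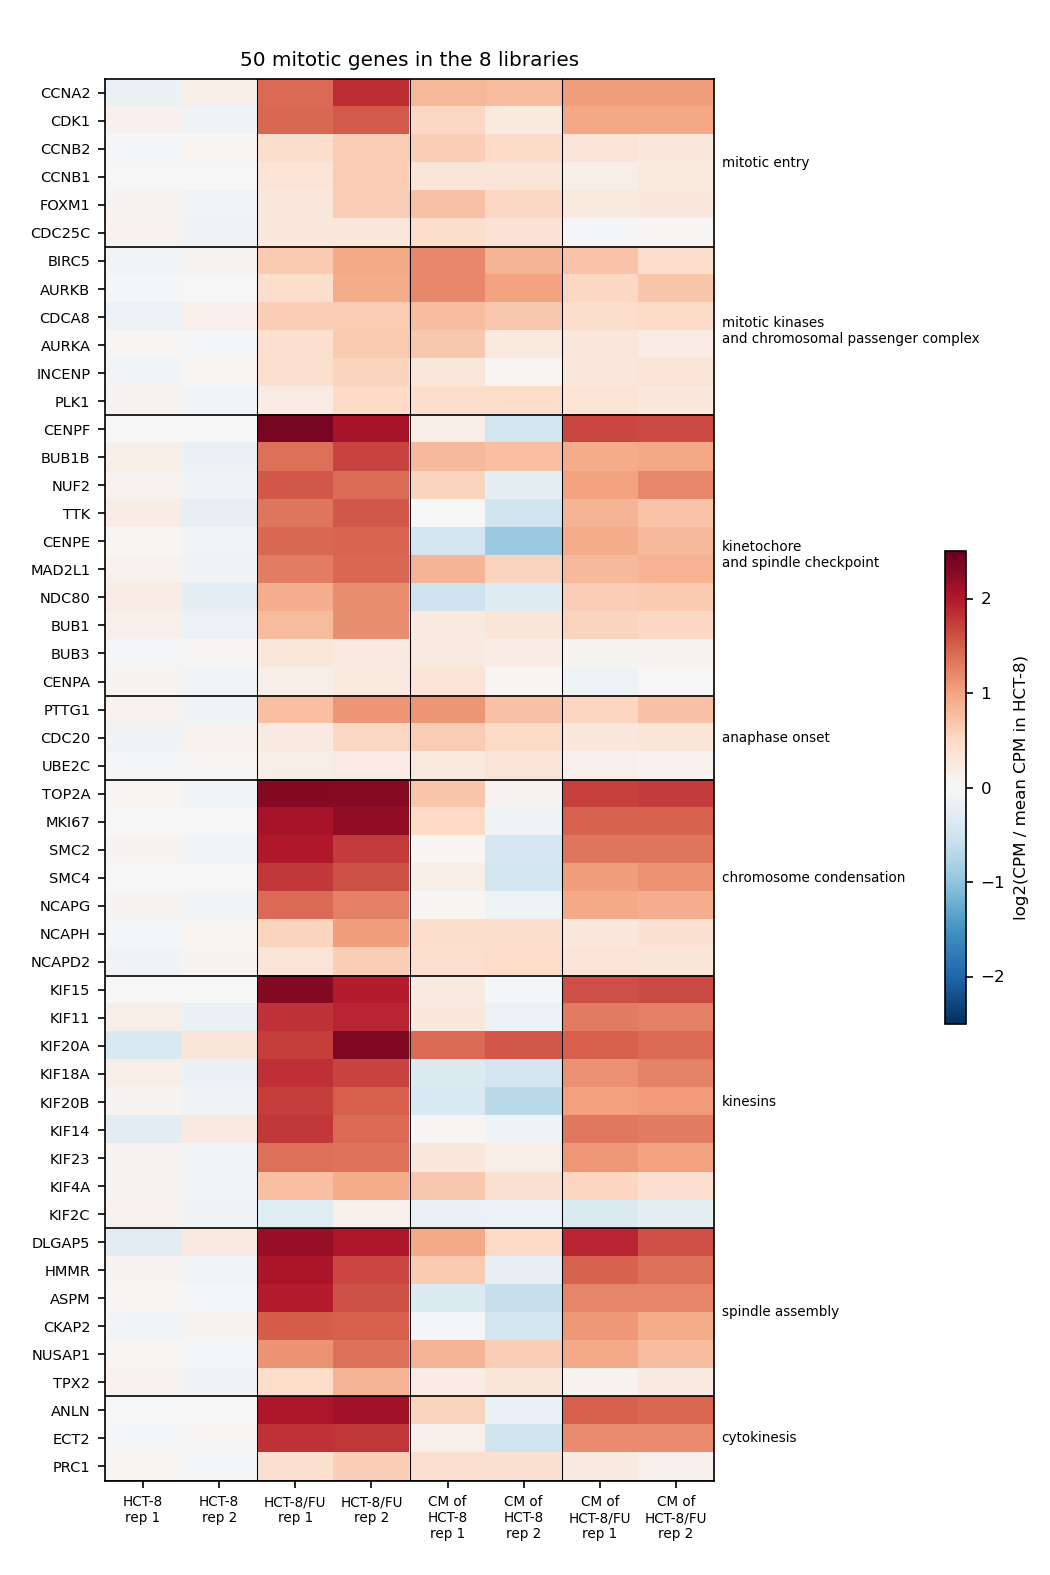
Log2 ratio of CPM to the mean of HCT-8 (color) for the 50 genes (rows, by role and then by log2 FC in HCT-8/FU against HCT-8) in the 8 libraries (columns, 2 replicates a group). The median ratio was 1.32 and 1.37 in the HCT-8/FU libraries, 0.41 and 0.21 in parental CM, and 0.89 and 0.79 in resistant CM.

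In resistant CM against parental CM, both on HCT-8 cells, 23 of 50 were called higher and 0 lower, against 7.97% of all genes higher and 1.28% lower. The median log2 FC was 0.20, against -0.06 for all genes. This comparison shares no library with the previous one. Its reference group, parental CM, had the widest spread between replicates. The median chi-square of the counts of a gene between replicates was 2.3 there and 1.02 to 1.43 in the other groups. Sampling noise only would give 0.455. All 23 were also called higher in HCT-8/FU, 13 were called in HCT-8/FU only, and 14 in neither. The overlap was not counted over all genes, so no share can be set beside it. Over all genes, both comparisons had a like trend of log2 FC with GC content (Spearman's rho -0.40 in each). The 50 genes fell apart into those high in both comparisons and those near or below 0 in the CM comparison. The 2 smallest log2 FC among the 23 were those of CDK1 at 0.60 and KIF23 at 0.85, and the highest outside them was that of BUB1 at 0.27.

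**Figure D2:**
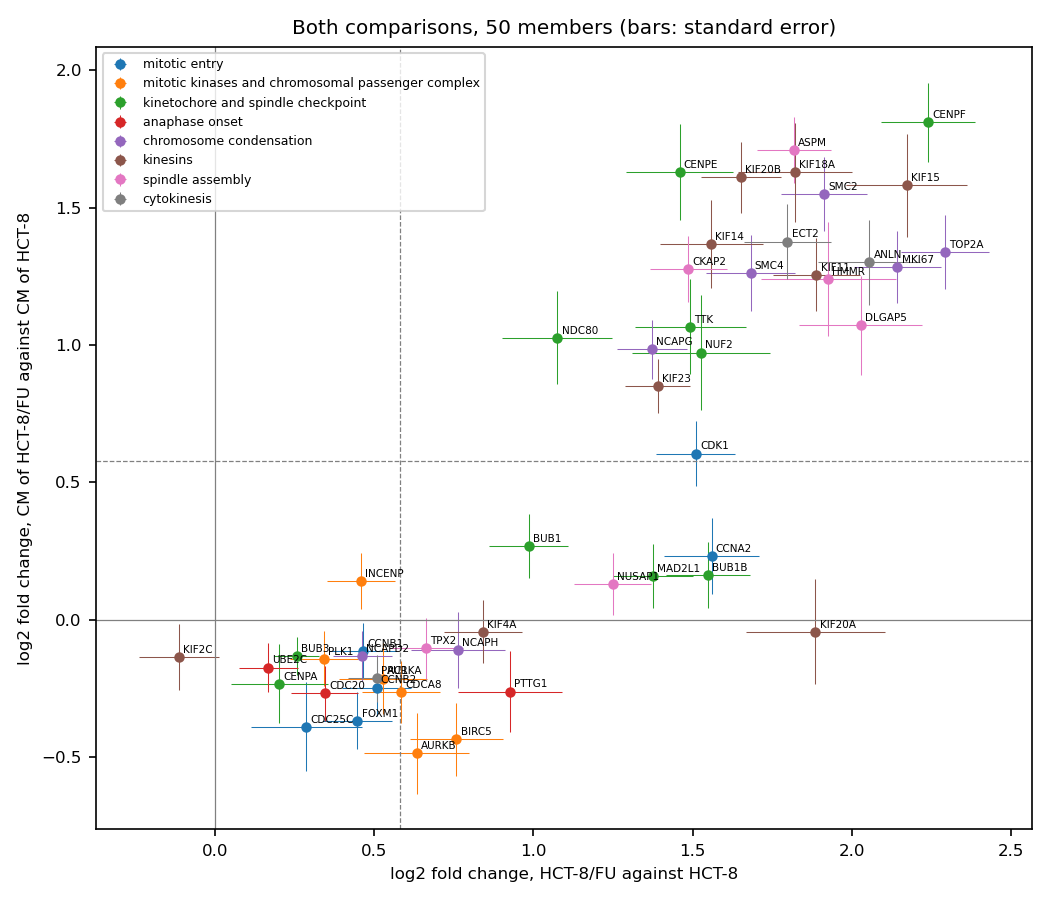
Log2 FC in HCT-8/FU against HCT-8 (horizontal) and in resistant CM against parental CM (vertical), with standard errors, colored by role; dashed lines mark 0.58. CENPF, at 2.24 and 1.81, lies at the upper right, KIF20A, at 1.89 and -0.04, far right near the zero line, and AURKB, at 0.63 and -0.49, lowest.

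Among the 6 genes of mitotic entry, 2 were called higher in HCT-8/FU and 1 in the CM comparison. CCNA2 (ENSG00000145386, chr4:121816444-121823883, minus strand) encodes cyclin A2, the partner of CDK2 and CDK1. It had 11.8 and 14.7 CPM in the HCT-8 libraries, 35.2 and 47.97 in the HCT-8/FU ones, 23.7 and 23.1 with parental CM and 27.3 and 27.5 with resistant CM. HCT-8/FU lay above every other group and HCT-8 below, while both CM groups were between them. The log2 FC was 1.56 ± 0.15 (adjusted p = 1.2e-06) in HCT-8/FU against HCT-8 and 0.23 ± 0.14 (adjusted p = 0.275) in the CM comparison, where ± is, here and for other genes, the standard error of a log2 FC with n = 2 libraries a group. CDK1, the mitotic kinase itself, was called in both, at 1.51 and 0.60, but its log2 FC in the CM comparison was -0.03 with an offset for GC content and exonic length. CDC25C (ENSG00000158402, chr5:138285269-138338355, minus strand), a phosphatase that activates CDK1, had 9.22 and 8.01 CPM in the HCT-8 libraries, 10.3 and 10.4 in the HCT-8/FU ones, 11.6 and 11.04 with parental CM and 8.44 and 8.79 with resistant CM. The 8 values spanned a narrow range, with parental CM highest, and neither log2 FC passed, at 0.29 ± 0.17 (adjusted p = 0.227) and -0.39 ± 0.16 (adjusted p = 0.109). The B-type cyclins CCNB1 and CCNB2 and the transcription factor FOXM1 passed the adjusted p in HCT-8/FU but not the fold, at 0.47, 0.51 and 0.45. FOXM1 also passed the adjusted p in the CM comparison, where it was lower, at -0.37 ± 0.10 (adjusted p = 0.0212).

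Mitotic kinases and the chromosomal passenger complex, which corrects faulty attachments and acts in cytokinesis, had 3 of 6 called higher in HCT-8/FU and 0 in the CM comparison. BIRC5 (ENSG00000089685, chr17:78214186-78225636, plus strand), survivin, had 24.6 and 27.3 CPM in the HCT-8 libraries, 40.7 and 49.98 in the HCT-8/FU ones, 59.96 and 46.8 with parental CM and 42.7 and 35.1 with resistant CM. Both parental CM values lay above those of HCT-8, and one of them above both of HCT-8/FU. Its log2 FC was 0.76 ± 0.15 (adjusted p = 0.000711) in HCT-8/FU and -0.43 ± 0.13 (adjusted p = 0.0325) in the CM comparison, where it passed the adjusted p but not the fold threshold. AURKB (ENSG00000178999, chr17:8204733-8210600, minus strand), the kinase of that complex, had 13.03 and 13.4 CPM in the HCT-8 libraries, 17.9 and 25.2 in the HCT-8/FU ones, 30.3 and 26.4 with parental CM and 18.8 and 21.3 with resistant CM. Parental CM gave the highest group, above both HCT-8/FU libraries. The log2 FC of AURKB was 0.63 ± 0.16 (adjusted p = 0.0066) and -0.49 ± 0.15 (adjusted p = 0.0295), the second again short of the fold threshold. CDCA8 (borealin) was called in HCT-8/FU at 0.58, barely past the threshold. That call was lost in 7 of the alternative fits, and the call for AURKB was lost without HCT-8 replicate 2 and without HCT-8/FU replicate 2. AURKA, which acts at the spindle poles, was just outside it at 0.53, and INCENP, the scaffold of the complex, had 0.46. PLK1 (ENSG00000166851, chr16:23677656-23690367, plus strand), the polo-like kinase, had 46.7 and 42.4 CPM in the HCT-8 libraries, 51.4 and 62.7 in the HCT-8/FU ones, 60.4 and 61.3 with parental CM and 56.6 and 53.8 with resistant CM. HCT-8 was the lowest group, and HCT-8/FU overlapped both CM groups, with a log2 FC of 0.34 ± 0.11 (adjusted p = 0.0191) and -0.14 ± 0.10 (adjusted p = 0.364).

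Of 10 kinetochore and spindle checkpoint genes, 8 were called higher in HCT-8/FU and 5 in the CM comparison. CENPF (ENSG00000117724, chr1:214603185-214664574, plus strand), a large protein of the outer kinetochore and nuclear matrix, had 57.9 and 57.1 CPM in the HCT-8 libraries, 299 and 240.4 in the HCT-8/FU ones, 64.3 and 42.1 with parental CM and 182 and 180.4 with resistant CM. HCT-8/FU was 4.72-fold above HCT-8, and resistant CM was 3.51-fold above parental CM, with no overlap between the groups compared. The log2 FC was 2.24 ± 0.15 (adjusted p = 4.28e-08) and 1.81 ± 0.15 (adjusted p = 9.23e-07). The kinetochore motor CENPE, NDC80 and NUF2 of the microtubule-binding NDC80 complex, and the checkpoint kinase TTK (MPS1) were called in both, at 1.46, 1.08, 1.53 and 1.49 in HCT-8/FU and 1.63, 1.03, 0.97 and 1.07 in the CM comparison. The checkpoint proteins BUB1B (BUBR1), MAD2L1 (MAD2) and BUB1 were called in HCT-8/FU only, and the call for BUB1 was lost with the GC and length offset, where its log2 FC was 0.57. BUB1B (ENSG00000156970, chr15:40161023-40221123, plus strand) had 19.4 and 15.7 CPM in the HCT-8 libraries, 45.2 and 56.2 in the HCT-8/FU ones, 30.9 and 29.7 with parental CM and 33.3 and 34.2 with resistant CM. Both CM groups lay near one another and between HCT-8 and HCT-8/FU, and its log2 FC was 1.55 ± 0.13 (adjusted p = 3.81e-07) against 0.16 ± 0.12 (adjusted p = 0.395). MAD2L1 (ENSG00000164109, chr4:120055623-120066858, minus strand) had 18.3 and 15.99 CPM in the HCT-8 libraries, 41.8 and 46.3 in the HCT-8/FU ones, 30.7 and 25.1 with parental CM and 29.99 and 31.4 with resistant CM, in the same order, with a log2 FC of 1.38 ± 0.13 (adjusted p = 8.41e-07) and 0.16 ± 0.12 (adjusted p = 0.391). A pseudogene, MAD2L1P1, shares 280 bases of sequence with MAD2L1, and reads could fall on either. CENPA (ENSG00000115163, chr2:26764289-26801067, plus strand), the centromeric histone H3 variant, had 16.1 and 14.6 CPM in the HCT-8 libraries, 16.98 and 18.2 in the HCT-8/FU ones, 19.4 and 15.6 with parental CM and 13.98 and 15.3 with resistant CM. HCT-8/FU lay just above HCT-8, and neither log2 FC passed, at 0.20 ± 0.15 (adjusted p = 0.337) and -0.23 ± 0.14 (adjusted p = 0.293). BUB3, which recruits BUB1 and BUB1B, passed the adjusted p in HCT-8/FU with 0.26, though its log2 FC was -0.18 with the GC and length offset.

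The 3 genes of anaphase onset had 1 called in HCT-8/FU and 0 in the CM comparison. PTTG1 (ENSG00000164611, chr5:160421855-160428739, plus strand), securin, the inhibitor of separase, had 15.3 and 13.3 CPM in the HCT-8 libraries, 23.99 and 30.9 in the HCT-8/FU ones, 30.9 and 23.7 with parental CM and 20.9 and 23.8 with resistant CM. HCT-8 lay below the other 3 groups, and parental CM overlapped HCT-8/FU. The log2 FC was 0.93 ± 0.16 (adjusted p = 0.000371) and -0.26 ± 0.15 (adjusted p = 0.253). The copy PTTG3P shares 128 bases with PTTG1. UBE2C (ENSG00000175063, chr20:45812576-45816957, plus strand), the ubiquitin-conjugating enzyme of the anaphase-promoting complex, had 38.8 and 40.1 CPM in the HCT-8 libraries, 43.7 and 45.6 in the HCT-8/FU ones, 46.5 and 49.1 with parental CM and 43.1 and 41.9 with resistant CM. All 8 values lay within a narrow range, with a log2 FC of 0.17 ± 0.09 (adjusted p = 0.188) and -0.17 ± 0.09 (adjusted p = 0.195). CDC20, which activates that complex, passed the adjusted p but not the fold in HCT-8/FU at 0.34 ± 0.11 (adjusted p = 0.0177), and had -0.27 ± 0.10 (adjusted p = 0.0759) in the CM comparison. CDC20P1 shares 440 bases with it.

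In chromosome condensation, 6 of 7 genes were called in HCT-8/FU and 5 in the CM comparison. TOP2A (ENSG00000131747, chr17:40388525-40417896, minus strand), the topoisomerase that decatenates and compacts sister chromatids, had 84.9 and 78.2 CPM in the HCT-8 libraries, 402 and 393 in the HCT-8/FU ones, 132 and 85.5 with parental CM and 268 and 273 with resistant CM. HCT-8/FU was 4.90-fold above HCT-8, the largest change of the 50, and resistant CM lay between HCT-8/FU and the rest. The log2 FC was 2.29 ± 0.14 (adjusted p = 2.28e-08) and 1.34 ± 0.13 (adjusted p = 5.4e-06). MKI67 (ENSG00000148773, chr10:128096659-128126423, minus strand), the Ki-67 protein that coats mitotic chromosomes, had 85.97 and 84.2 CPM in the HCT-8 libraries, 356 and 398 in the HCT-8/FU ones, 119 and 78.8 with parental CM and 237 and 237 with resistant CM. Here too HCT-8/FU was highest and resistant CM next, with a log2 FC of 2.14 ± 0.14 (adjusted p = 3.29e-08) and 1.28 ± 0.13 (adjusted p = 7.13e-06). The condensin subunits SMC2, SMC4 and NCAPG were called in both, at 1.91, 1.68 and 1.37 in HCT-8/FU and 1.55, 1.26 and 0.98 in the CM comparison. NCAPH, the kleisin of condensin I, was called in HCT-8/FU only, at 0.76 against -0.11, a call lost without HCT-8/FU replicate 2. NCAPD2 (ENSG00000010292, chr12:6493356-6531955, plus strand), a condensin I regulator, had 134 and 149 CPM in the HCT-8 libraries, 178 and 218 in the HCT-8/FU ones, 189 and 196 with parental CM and 177 and 174 with resistant CM. HCT-8 was lowest, and the log2 FC was 0.46 ± 0.09 (adjusted p = 0.00103) in HCT-8/FU and -0.13 ± 0.09 (adjusted p = 0.352) in the CM comparison. Exons of LCORL lie opposite 33.7% of the exonic bases of NCAPG, and exons of IFT80 and TRIM59 opposite 22.0% of those of SMC4. A strand setting for the counting was not found in the study's methods.

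Of the 9 mitotic kinesins, 8 were called in HCT-8/FU and 6 in the CM comparison. KIF15 (ENSG00000163808, chr3:44761721-44873376, plus strand), which can keep the spindle bipolar beside KIF11, had 4.08 and 4.02 CPM in the HCT-8 libraries, 19.8 and 15.9 in the HCT-8/FU ones, 4.72 and 3.92 with parental CM and 12.4 and 12.8 with resistant CM. Both changes left no overlap, at 2.17 ± 0.19 (adjusted p = 5.28e-07) and 1.58 ± 0.19 (adjusted p = 2.34e-05). KIF11 (Eg5), which pushes the poles apart, KIF18A, which dampens chromosome movement, KIF20B and KIF14 of cytokinesis, and KIF23 of centralspindlin were also called in both, at 1.89, 1.82, 1.65, 1.56 and 1.39 in HCT-8/FU. Their log2 FC in the CM comparison was 1.26, 1.63, 1.61, 1.37 and 0.85 in the same order. KIF20A (ENSG00000112984, chr5:138178719-138187723, plus strand) (MKLP2), which carries the passenger complex to the spindle midzone, behaved otherwise. It had 4.48 and 7.18 CPM in the HCT-8 libraries, 19.3 and 29.4 in the HCT-8/FU ones, 15.7 and 17.1 with parental CM and 16.5 and 15.5 with resistant CM. HCT-8 was far below the other 3 groups, and the CM groups overlapped, so that the log2 FC was 1.89 ± 0.22 (adjusted p = 6.94e-06) in HCT-8/FU and -0.04 ± 0.19 (adjusted p = 0.909) in the CM comparison. KIF4A, which binds chromosomes and, with PRC1, the central spindle, was called in HCT-8/FU at 0.84 and had -0.04 in the CM comparison. It shares 1184 bases with its copy KIF4B. KIF2C (ENSG00000142945, chr1:44739818-44767767, plus strand) (MCAK), which depolymerizes microtubules at centromeres, had 47.9 and 42.5 CPM in the HCT-8 libraries, 36.5 and 48.8 in the HCT-8/FU ones, 40.2 and 40.6 with parental CM and 35.3 and 38.2 with resistant CM. HCT-8 and HCT-8/FU overlapped. It was the only member with a log2 FC below 0 in HCT-8/FU, at -0.11 ± 0.13 (adjusted p = 0.535), or 0.01 with the GC and length offset, against -0.14 ± 0.12 (adjusted p = 0.482) in the CM comparison.

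**Figure D3:**
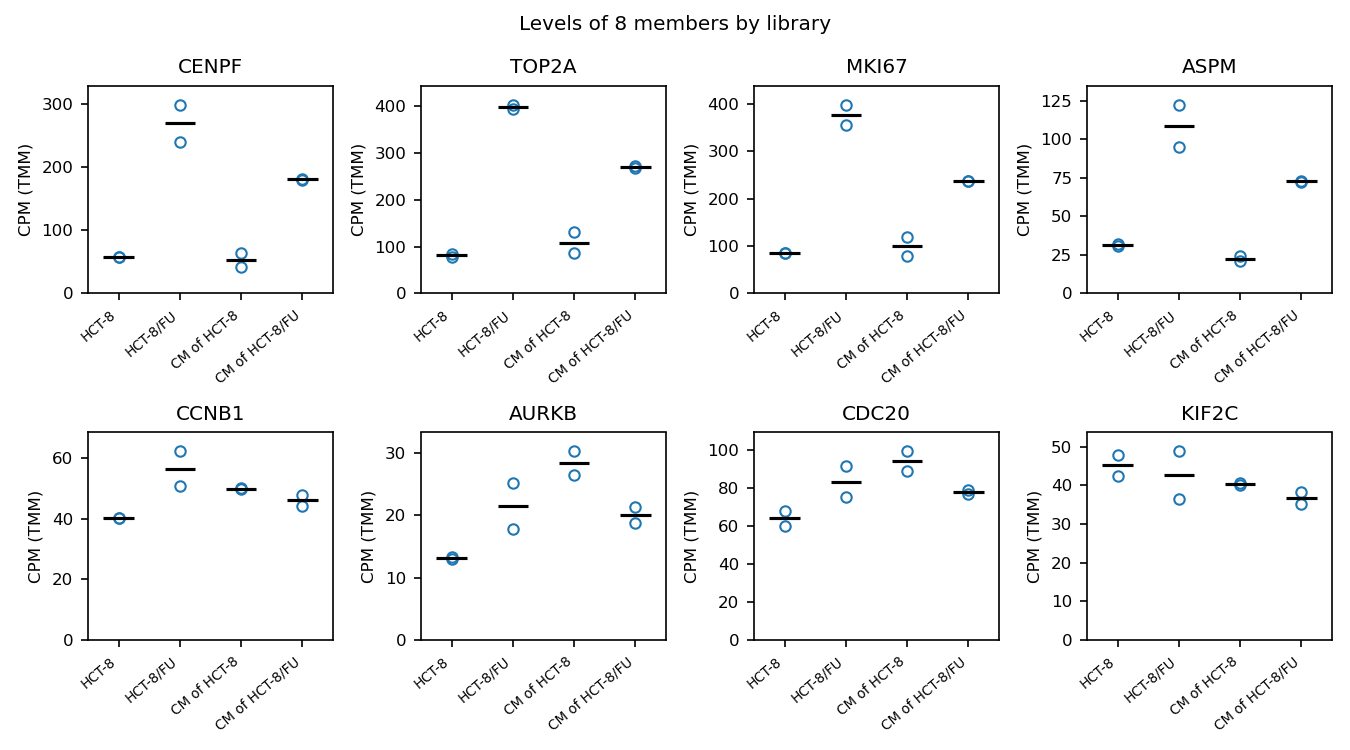
CPM after TMM normalization in each library (circles) and the group mean (line) for 8 genes in the 4 groups. CENPF, TOP2A, MKI67 and ASPM were highest in HCT-8/FU and second in resistant CM, AURKB and CDC20 had their highest mean in parental CM, and KIF2C had its highest mean in HCT-8.

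All 6 spindle assembly genes were called higher in HCT-8/FU and 4 in the CM comparison. DLGAP5 (ENSG00000126787, chr14:55148112-55191608, minus strand) (HURP), which stabilizes fibers at kinetochores, had 4.74 and 6.71 CPM in the HCT-8 libraries, 25.9 and 23.2 in the HCT-8/FU ones, 11.1 and 8.14 with parental CM and 21.3 and 17.6 with resistant CM. The groups compared did not overlap, and the log2 FC was 2.03 ± 0.19 (adjusted p = 1.11e-06) and 1.07 ± 0.18 (adjusted p = 0.000591). ASPM (ENSG00000066279, chr1:197084121-197146694, minus strand), which focuses spindle poles, had 31.99 and 30.8 CPM in the HCT-8 libraries, 122 and 95.1 in the HCT-8/FU ones, 24.3 and 20.98 with parental CM and 72.7 and 73.2 with resistant CM. Its log2 FC was 1.82 ± 0.12 (adjusted p = 3.85e-08) and 1.71 ± 0.12 (adjusted p = 5.55e-07), and parental CM was the lowest group. HMMR and CKAP2, which bind spindle microtubules, were called in both, at 1.93 and 1.49 in HCT-8/FU and 1.24 and 1.28 in the CM comparison. NUSAP1 (ENSG00000137804, chr15:41320794-41381050, plus strand), a microtubule bundler, had 27.5 and 25.9 CPM in the HCT-8 libraries, 58.5 and 69.4 in the HCT-8/FU ones, 48.3 and 41.02 with parental CM and 51.5 and 45.3 with resistant CM. It was called in HCT-8/FU at 1.25 ± 0.12 (adjusted p = 1.2e-06), but in the CM comparison, where its groups overlapped, it had 0.13 ± 0.11 (adjusted p = 0.471). TPX2 (ENSG00000088325, chr20:31739271-31801805, plus strand), the activator of AURKA, had 76.2 and 67.05 CPM in the HCT-8 libraries, 99.03 and 129 in the HCT-8/FU ones, 82.5 and 88.6 with parental CM and 75.8 and 83.8 with resistant CM. HCT-8/FU stood above the other 3 groups, which lay close together, with a log2 FC of 0.66 ± 0.12 (adjusted p = 0.000333) and -0.10 ± 0.11 (adjusted p = 0.58). The call for TPX2 was lost without replicate 2 of HCT-8/FU and also without replicate 2 of HCT-8. Exons of OIP5-AS1 and another gene overlap 86.8% of the exonic bases of NUSAP1 on the same strand, so its counts are less certain.

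Cytokinesis had 2 of 3 genes called in both comparisons. ANLN (ENSG00000011426, chr7:36389821-36453791, plus strand), anillin of the contractile ring, had 19.4 and 19.6 CPM in the HCT-8 libraries, 79.3 and 83.7 in the HCT-8/FU ones, 28.5 and 17.3 with parental CM and 54.8 and 52.4 with resistant CM, with a log2 FC of 2.06 ± 0.16 (adjusted p = 1.85e-07) and 1.302 ± 0.16 (adjusted p = 2.61e-05). ECT2, the exchange factor that activates RHOA at the cell equator, had 1.80 and 1.38. PRC1 (ENSG00000198901, chr15:90966040-90995629, minus strand), which bundles the central spindle, had 80.3 and 75.8 CPM in the HCT-8 libraries, 104 and 119.7 in the HCT-8/FU ones, 104 and 102 with parental CM and 91.8 and 85.1 with resistant CM. HCT-8 was lowest, but the log2 FC fell short of the fold threshold, at 0.51 ± 0.09 (adjusted p = 0.000342) and -0.21 ± 0.09 (adjusted p = 0.1). Exons of another gene (ENSG00000284946) overlap 57.6% of the exonic bases of PRC1 on the same strand, and the antisense gene PRC1-AS1 lies opposite 34.3% of them, so the counts of PRC1 are less certain.

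Whether the log2 FC of HCT-8/FU against HCT-8 differed from that of resistant CM against parental CM was tested as their difference. The difference also holds any change of parental CM against HCT-8, since the comparisons have different reference groups. It was called above 0 for 25 of 50 genes and below 0 for 0, against 3.55% and 4.14% of all genes. For another 4 genes the difference passed the adjusted p but not the threshold of 0.58, and for 21 it did not pass the adjusted p. HMMR at 0.69, CDC25C at 0.68 and KIF15 at 0.59 are among these 21, though above 0.58. The 21 also hold CENPE, KIF20B, NDC80 and ASPM, for which a missed threshold does not show equal effects. The smallest adjusted p were those of BUB1B, with a difference of 1.39 ± 0.18 (adjusted p = 0.000142), MAD2L1, with 1.22 ± 0.17 (adjusted p = 0.000325), and NUSAP1, with 1.12 ± 0.16 (adjusted p = 0.000411). KIF20A had the largest, at 1.93 ± 0.29 (adjusted p = 0.000505). Its log2 FC was 1.38 in parental CM against HCT-8 and 1.34 in resistant CM against HCT-8. The count of 25 rests in part on 1 library, since it was 11 without HCT-8 replicate 2. It was 19 when the 3 libraries in which over 15% of records were not aligned were left out.

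Cells with parental CM were compared with HCT-8 in unconditioned medium, with the same HCT-8 libraries that served HCT-8/FU and the same parental CM libraries that served resistant CM. Of the 50 genes, 10 were called higher and 1 lower, against 3.86% and 4.29% of all genes. The smallest adjusted p were those of BIRC5 at 1.00 ± 0.14 (adjusted p = 0.000204), AURKB at 1.08 ± 0.16 (adjusted p = 0.000256) and KIF20A at 1.38 ± 0.22 (adjusted p = 0.000438). The others higher were PTTG1 at 0.93, BUB1B at 0.83, CCNA2 at 0.77, NUSAP1 at 0.74, MAD2L1 at 0.71, CDCA8 at 0.68 and FOXM1 at 0.63. CENPE was lower, at -0.74 ± 0.19 (adjusted p = 0.012), a call lost in 4 of the alternative fits, the GC and length offset among them. The call for FOXM1 was lost in 6 and that for CDCA8 in 3. Of these 11 calls, 5 held in every alternative, those of CCNA2, AURKB, BIRC5, KIF20A and NUSAP1. The count of 10 was 6 without HCT-8 replicate 2 and 17 without parental CM replicate 2.

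Cells with resistant CM were also compared with HCT-8 in unconditioned medium, again with those HCT-8 libraries. Here 30 of 50 genes were called higher and 0 lower, against 7.16% and 3.28% of all genes, with a median log2 FC of 0.87. The highest were TOP2A at 1.73, DLGAP5 at 1.68, CENPF at 1.66 and KIF15 at 1.64. KIF20A, at 1.34, and CCNA2, at 1.00, were among the 30, as were AURKB at 0.60 and PTTG1 at 0.67, whose calls were lost without HCT-8 replicate 2.

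Compared between genes, levels per kilobase of exon spread widely within the set. In HCT-8, CDC20 had 31.8 CPM per kilobase, UBE2C 30.7 and NCAPD2 21.9, and the lowest were KIF15 at 0.767 and CENPE at 0.841. In HCT-8/FU the highest was TOP2A, at 62.4 CPM per kilobase, followed by CDC20 at 41.3 and UBE2C at 34.7. TOP2A had 12.8 in HCT-8, 17.03 in parental CM and 42.4 in resistant CM. HCT-8/FU had the highest mean of the 4 groups for 40 of 50 genes and parental CM for 9. The lowest mean was that of HCT-8 for 34 and that of parental CM for 13. These orders were not counted over all genes, so whether they are particular to this set cannot be told.

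The split of the 50 genes moved with the base composition of their exons. The 23 genes called in the CM comparison had GC contents of 34.3% to 48.2% (median 38.3%) and exonic lengths of 3362 to 12845 bases (median 5499). The other 27 had 38.0% to 58.8% (median 47.9%) and 1286 to 8175 bases (median 3646). Over the 50 genes, Spearman's rho between log2 FC and GC content was -0.66 in HCT-8/FU against HCT-8, -0.79 in the CM comparison and 0.58 in parental CM against HCT-8. The points share their libraries, and over all genes with a GC content rho was -0.40, -0.40 and 0.30. An exception was MKI67, with a GC content of 48.2%, which was called in both comparisons.

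**Figure D4:**
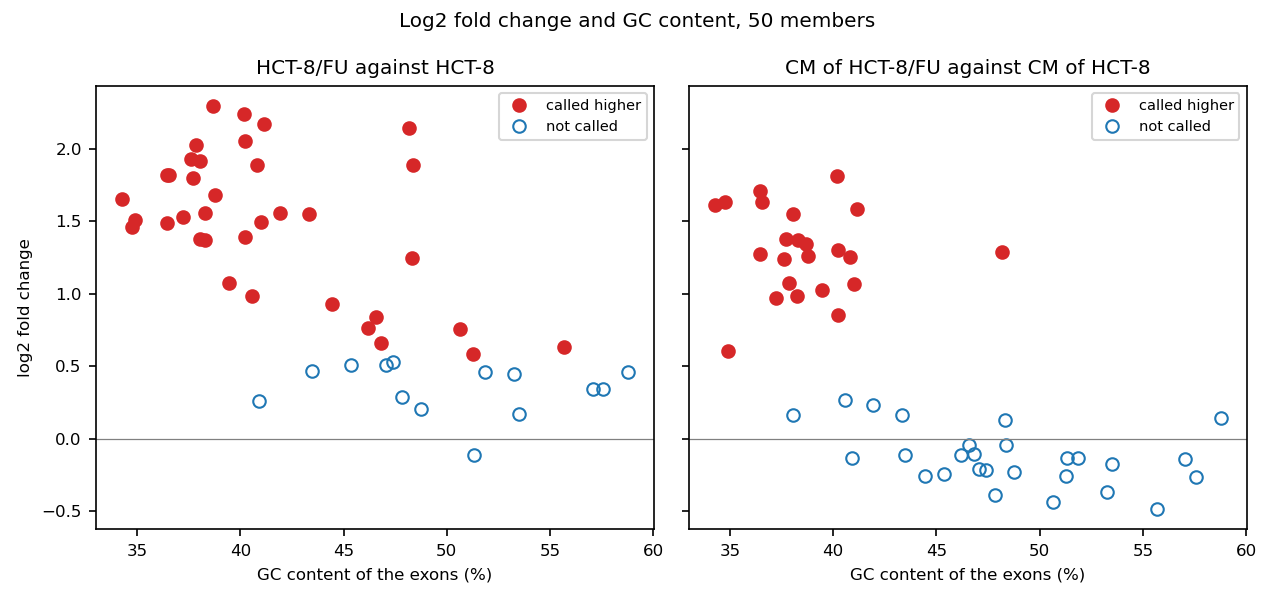
Log2 FC against GC content of the exons for the 50 genes in both comparisons, with filled points for genes called higher. Called genes in the CM comparison lie between 34.3% and 48.2% GC.

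The fit was therefore repeated with an offset for each library, a smooth function of GC content and length fitted over all genes, whatever the origin of the trend. Over the 50 genes part of the trend remained, with a rho for GC content of -0.42 in HCT-8/FU, -0.55 in the CM comparison and 0.30 in parental CM against HCT-8. In HCT-8/FU against HCT-8, 37 of 50 were then called higher, 35 of them also called without it, against 7.28% of all genes, with a median log2 FC of 0.84. In the CM comparison, 19 were called, all among the 23, against 2.65% of all genes, with a median of 0.05. The 4 lost were CDK1, NUF2, NCAPG and KIF23. Among all genes, higher calls were 61.9% of calls in HCT-8/FU without the offset and 47.5% with it, and 86.2% and 55.1% in the CM comparison.

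**Figure D5:**
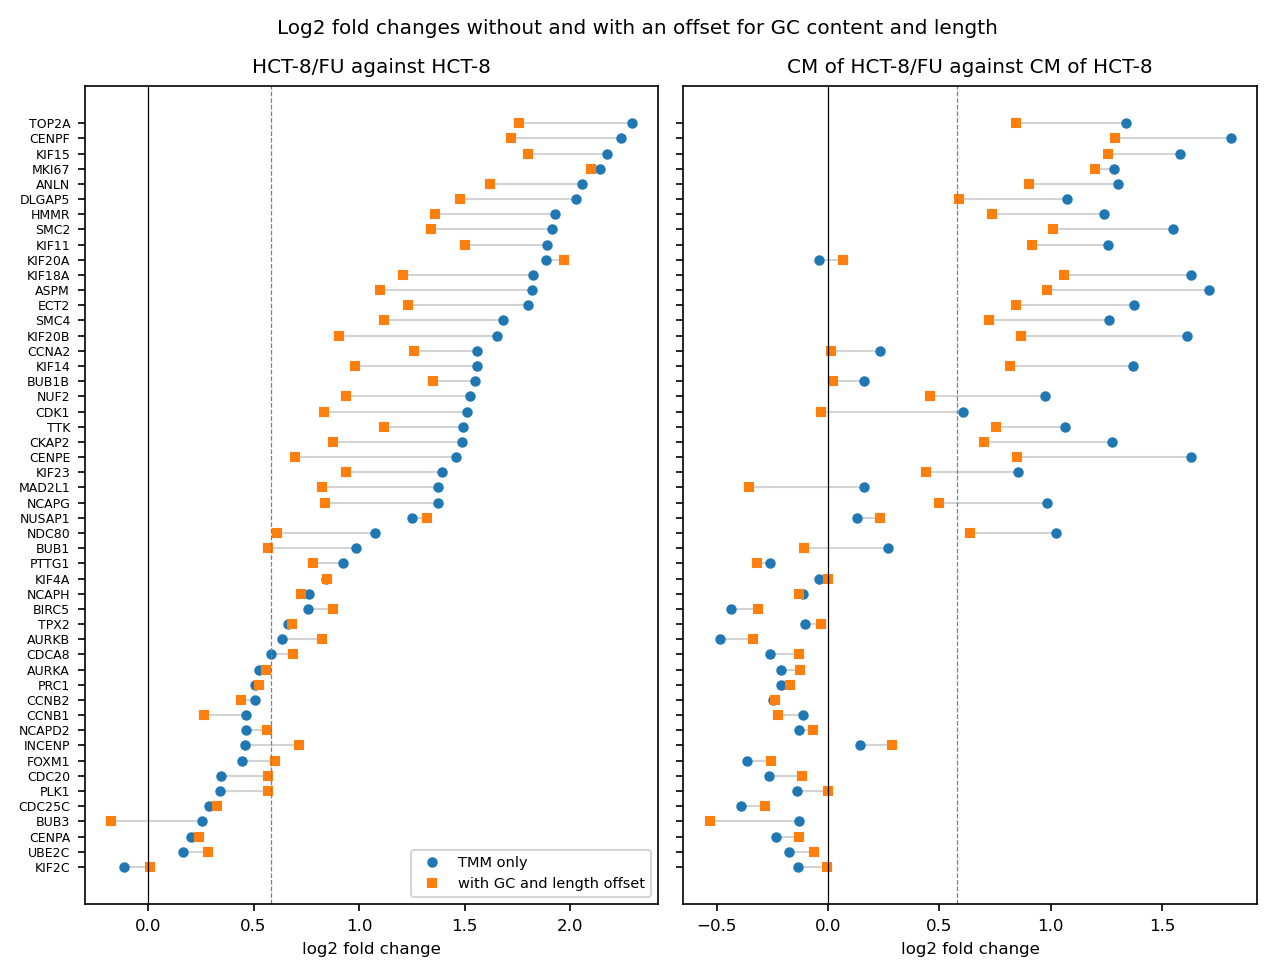
Log2 FC of the 50 genes (rows) with TMM normalization only (circles) and with the GC and length offset (squares), in both comparisons; the dashed line marks 0.58. MKI67 hardly moved, while CENPE, at 1.46 and 1.63 without the offset, moved to 0.69 and 0.85.

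Other genes of the same processes, 115 in all, were followed in 5 lists, also chosen with earlier results of these data known. In HCT-8/FU against HCT-8, 59 were called higher and 1 lower, and in the CM comparison 28 and 0, or 51.3% and 24.3% of them higher against 13.2% and 7.97% of all genes. The median log2 FC was 0.63 and 0.03. Of 37 other kinetochore and centromere genes, HCT-8/FU had 21 higher and 1 lower and 8 were higher in the CM comparison. SKA3, of the complex that couples kinetochores to depolymerizing microtubules, was the highest of that list at 1.96 ± 0.19 (adjusted p = 1.36e-06), and MAD2L1BP (p31comet), which silences the checkpoint, the lowest at -0.63 ± 0.12 (adjusted p = 0.000597). Cohesin and condensin II had 12 and 8 of 15 called higher, from ESCO2, a cohesin acetyltransferase, at 2.35 ± 0.21 (adjusted p = 5e-07) to NCAPH2 of condensin II at -0.29 ± 0.09 (adjusted p = 0.025). The anaphase-promoting complex had 3 and 1 of 17, or 17.6% and 5.88%, near the shares of all genes, from its inhibitor FBXO5 (EMI1) at 1.02 ± 0.15 (adjusted p = 7.48e-05) to its activator FZR1 (CDH1) at -0.41 ± 0.10 (adjusted p = 0.00463). Spindle, centrosome and cytokinesis genes had 15 and 7 of 30, with HAUS6 at 1.54 ± 0.12 (adjusted p = 1.85e-07) and HAUS2 at -0.29 ± 0.11 (adjusted p = 0.0496) at either end, both subunits of the augmin complex that branches microtubules. The regulators of mitotic genes had 8 and 4 of 16, from LIN9 at 1.24 ± 0.18 (adjusted p = 7.39e-05) to LIN37 at -0.85 ± 0.40 (adjusted p = 0.113), both MuvB subunits.

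The promoter letters were also counted by outcome in the CM comparison. TTTGAA was found in 20 of the 22 promoters of genes called there and in 12 of the 21 of genes not called. CCAAT was found in 13 and 18 of them. These counts describe promoters of genes that also differ in exonic GC content, and were not tested.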

How the data were processed

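RNA-seq of 8 libraries was analyzed. Per the labels and methods, the authors captured mRNA, used HISAT2 for alignment to GRCh38 and HTSeq 0.11.2 for counting, and deposited raw counts for 64253 genes, without normalization. The lines that name no gene were left out of library sizes (no feature took 33.7% to 49.6% of records). For the strand setting of HTSeq, nothing is given in the sources used here. Comparison tables of DESeq2, with fold changes and p-values, were also deposited by the authors and were not used. Value columns left unused came to 0.

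The 50 genes and all lists were chosen with earlier results of these data known. Counts were fitted in R 4.3.3 with edgeR 4.0.16: 4 group means over all 8 libraries, TMM with HCT-8 replicate 2 as reference, filterByExpr, and quasi-likelihood tests, adjusted over 20305 genes after Benjamini-Hochberg. Calls needed an adjusted p of at most 0.05 and an absolute log2 FC of at least 0.58, the thresholds of the study. A standard error is the absolute log2 FC divided by the square root of F. Fits were tested on simulated counts with 200 changed genes in HCT-8/FU against HCT-8. There the main fit recovered 51% of 2-fold and 83% of 4-fold changes, with 7 false calls. With a GC trend added, it gave 4520 false calls, and the fit with the GC and length offset gave 10. There 2-fold changes were recovered at 56% without and 58% with the offset, and 4-fold changes at 88% and 73%. The added trend was linear in GC content on the log scale, a form that the offset can fit. These counts therefore do not show how well the offset works on the real libraries. The size of that added trend was not taken from these libraries. Levels are TMM-normalized CPM. Every library value is given for the highest and lowest member of each role by log2 FC in HCT-8/FU, for TOP2A, MKI67, ASPM and CENPF, and for the 3 smallest adjusted p in parental CM against HCT-8 and in the difference. Of each other list, the highest and lowest gene is named. Alternatives were DESeq2 1.42.0 and its size factors, another TMM reference, other filters, the compared groups only, a replicate block, a spline offset (5 degrees of freedom) for GC content and exonic length, a term for the libraries with over 15% not aligned, no fold threshold, and leaving out each library. Leaving out those 3 libraries together was added after the data were seen. Positions, lengths and GC contents come from GENCODE 44, on the same build, where all 50 genes were found. Groups of 2 libraries limit the precision.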

Additional observations from a re-analysis of the deposited data

Results flagged for a closer look

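In 25 of the 50 mitotic genes, the log2 FC was called larger in HCT-8/FU against HCT-8 than in resistant CM against parental CM. The share of all genes called so was 3.55%. A call needed an adjusted p of at most 0.05 and a difference of at least 0.58. The p-values were those of edgeR's quasi-likelihood test of the difference between the comparisons, which also holds any change of parental CM against HCT-8. The largest differences in log2 FC were those of KIF20A (1.93), BUB1B (1.39), CCNA2 (1.33), MAD2L1 (1.22), BIRC5 (1.19), PTTG1 (1.19), AURKB (1.12) and NUSAP1 (1.12). Smaller ones were found for DLGAP5 (0.96), TOP2A (0.95), CDK1 (0.91), KIF4A (0.88), NCAPH (0.88), MKI67 (0.86), CDCA8 (0.85) and FOXM1 (0.81). The smallest that were called were those of TPX2 (0.77), CCNB2 (0.75), ANLN (0.75), AURKA (0.74), PRC1 (0.72), BUB1 (0.72), KIF11 (0.63), CDC20 (0.61) and NCAPD2 (0.59). The 9 differences called under every alternative tried were those of CCNA2, AURKB, BIRC5, CDCA8, BUB1B, MAD2L1, KIF20A, NUSAP1 and PRC1, and without HCT-8 replicate 2 the count fell to 11. With 2 libraries in a group, no library could be tested as standing apart from its group.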

How the results depend on the processing

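Leaving out each library in turn gave 32 to 42 members called higher in HCT-8/FU against HCT-8, with 32 without HCT-8/FU replicate 2, and 21 to 23 higher and 0 to 2 lower in the CM comparison. It gave 6 to 17 higher and 0 to 2 lower in parental CM against HCT-8, 26 to 30 higher in resistant CM against HCT-8, and 11 to 32 for the difference. AURKB and BIRC5 were called lower in the comparison of both media without parental CM replicate 2, and BIRC5 without resistant CM replicate 1. Without the fold threshold, 19 were higher and 3 lower in parental CM against HCT-8, and 3 lower in the CM comparison. The count of members lower in parental CM against HCT-8 was 2 with DESeq2, with its size factors and without the 3 libraries with over 15% not aligned, and 0 with the compared groups only and with the GC and length offset, with or without the block. Same-numbered libraries did not deviate together (r between -0.12 and 0.13). The libraries with over 15% not aligned carry different numbers in different groups, so this check cannot exclude that the numbers pair the libraries. With the replicate block, 36, 23, 10, 30 and 26 members were called higher in the same order of comparisons, the last being the difference, and 1 lower in parental CM against HCT-8. With the GC and length offset plus block these counts were 37, 18, 12, 28 and 20. All 36 calls in HCT-8/FU kept their direction under every alternative, and 30 their call, as did 18 of 23 in the CM comparison and 9 of 25 differences.

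Some signs turned. With the offset, without and with the block, the log2 FC of BUB3 in HCT-8/FU was -0.18 and -0.17, and that of KIF2C 0.0071 and 0.013. The range of KIF2C on leaving out a library was -0.30 to 0.12. In the CM comparison, those 2 fits gave CDK1 -0.032 and -0.034, PLK1 0.00050 and 0.00029, BUB1 -0.11 and -0.10, MAD2L1 -0.35 and -0.35, and KIF20A 0.069 and 0.10. KIF20A was also 0.042 with the other TMM reference, 0.00014 with DESeq2 and 0.044 with the compared groups only, and ranged from -0.094 to 0.037 on leaving out a library. KIF4A was 0.000927 with the offset, 0.043 with the other reference, 0.046 with the compared groups only, 0.051 with the alignment term and 0.084 without the 3 libraries, and ranged from -0.19 to 0.085. The cause was not tested. CDK1 was the only gene of these that was called in the comparison where it turned. Groups of 2 libraries, and a shallowest library of 5804124 counts, set the precision.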
